A study of Mus musculus with 38 samples.

Results

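Papillary thyroid carcinomas (PTCs) of mice that express mutant BRAF in the thyroid were compared with asymptomatic thyroids (AT) of mice that express the same oncogene, so that BRAF V600E RNA was present on both sides of the comparison. The 15 mice, 10 PTC and 5 BRAF(+) AT, were taken from 38 by the lesion and by the BRAF status in the sample labels. All 15 were FVB/N transgenics in which the bovine thyroglobulin promoter, active in thyroid follicular cells, drove a human BRAF V600E cDNA, and a mouse was called BRAF(+) where its thyroid held BRAF V600E RNA by sequencing. RNA came from parts of both lobes and histology from the other parts of the gland, and each mouse gave 1 array, a GeneChip Mouse Gene 1.0 ST, whose values are RMA signals on a log2 scale.

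The PTC mice were 8 females and 2 males of 6 to 21 months (median 11), and the BRAF(+) AT mice were 4 females and 1 male of 7 to 11 months (median 10). Mice M_686, M_700 and M_884 among the PTCs and mouse M_779 among the AT were under 9 months old. By the study's description of its cohort, BRAF(+) mice of that age class in these groups came from the line tg2 and the older ones from tg3, so age and transgenic line cannot be told apart. For context, values of 5 BRAF(-) AT are given beside some results: 3 females and 2 males of 4 to 12 months (median 11), 1 of them under 9 months, without BRAF V600E RNA and, by the study's cohort description, genotyped as carrying no transgene. Since whole tissue was measured, fewer cells of a type and less RNA per cell cannot be told apart.

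BRAF V600E is a kinase that stays active without a signal from RAS. It drives MEK and ERK, and ERK turns on ETS transcription factors of the PEA3 group, cyclin D1 and a set of feedback inhibitors (Sprouty and Spred proteins and the DUSP phosphatases). The normal follicular cell takes up iodide through the transporter NIS, oxidises it with hydrogen peroxide from the DUOX enzymes, couples it to thyroglobulin and deiodinates the hormone, and loss of these functions is a known feature of BRAF-mutant human PTC. The gland also holds C cells, which derive from another lineage and store calcitonin in secretory granules, and it lies next to parathyroid glands, muscle, cartilage and brown fat.

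Of 19938 genes, 3704 passed an adjusted p of 0.05 in limma, where sex and the 6 groups were terms and all 38 arrays were used. PTC was higher for 1881 genes, 9.43% of those tested, and lower for 1823, 9.14%. A difference of at least 1.5-fold was reached by 464 of the higher and 211 of the lower genes. All 10 PTCs lay above all 5 BRAF(+) AT for 577 genes (2.89% of those tested) and below all of them for 336 (1.69%). The median difference over all genes was -0.05.

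How many genes passed depended on which asymptomatic mice were in the fit. Without AT mouse M_779 the count was 1748 genes, 982 higher and 766 lower in PTC. Without AT mouse M_523 it was 2497, with 1085 lower, and without both it was 671, with 411 higher and 260 lower. Over all genes, as the root of the summed squared log2 differences, mouse M_523 lay 61.4 from the PTC mean and 39.2 from the BRAF(-) AT mean, and mouse M_779 lay 67.1 from the PTC mean and 44.6 from the BRAF(-) AT mean. Mice M_948 and M_1003 lay the other way, at 46.9 and 46.2 from the PTC mean and at 57.5 and 63.0 from the BRAF(-) AT mean, and mouse M_945 was at 44.6 from the PTC mean and 45.2 from the BRAF(-) AT mean. Mice M_523 and M_779 were thus the AT mice farthest from the PTC mean in these same values, and leaving them out brings the groups nearer over all genes by construction. M_523 was a male of 10 months and M_779 a female of 7 months, so that no shared label sets them apart from the other AT mice. Leaving them out also leaves fewer AT mice, so a call lost in that fit, here and below, need not mean a smaller difference. Every PTC was nearer to the mean of the other PTCs (29.3 to 56.8) than to the BRAF(-) AT mean (57.2 to 79.5). The same held against the BRAF(+) AT mean (41.8 to 71.9), by least in PTC mouse M_700, at 55.4 against 58.3. AT mice M_945 and M_948 were nearest to the mean of the other BRAF(+) AT, at 29.9 and 36.5. Mice M_523 and M_779 lay 44.6 and 51.3 from that mean, farther than from the BRAF(-) AT mean. Mouse M_1003 lay 48.15 from it, farther than from the PTC mean. In 250 genes higher and 97 lower in PTC, the call and direction held in all 28 alternative fits of the same gene table, among which are those that left out each mouse in turn. The minimum of 1.5-fold, a cut on the main fit, is not among the 28.

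**Figure D1:**
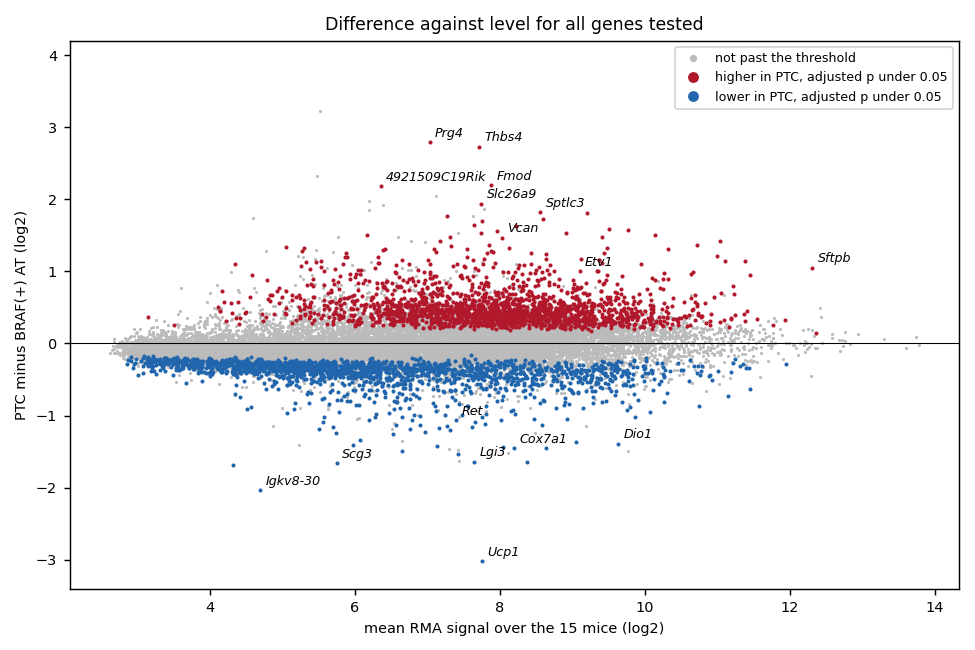
Difference between PTC and BRAF(+) AT on the log2 scale (vertical axis) against the mean log2 signal over the 15 mice (horizontal axis), 1 point per gene for 19938 genes. Red points were higher and blue points lower in PTC at an adjusted p under 0.05 and grey points did not pass. Blue points with small differences are dense at low signal, and Prg4 and Ucp1 lie at the ends of the called range, at 2.79 and -3.02.

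Direction varied with signal level. Among 3819 genes with a mean under 4.5, 0.497% were higher and 8.06% lower in PTC, whereas among 3414 genes between 7.5 and 8.5, 16.2% were higher and 6.85% lower. Of 1027 olfactory receptor genes, a family whose members serve the sense of smell, 5 were higher and 77 (7.498%) lower in PTC, a share below the 9.14% over all genes, with a median difference of -0.10. Their median signal on each array was 3.44 to 3.57 in PTC and 3.51 to 3.81 in BRAF(+) AT, with mouse M_779 the highest, and 3.57 to 3.61 in BRAF(-) AT. The part of these array levels in the small decreases of other dim genes was not tested. In a fit of the genes with a mean signal of at least 6.5, an alternative chosen after seeing the data, 1737 genes were higher and 862 lower in PTC.

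Braf itself was higher in PTC. Its signal was lowest at 9.495, with a median of 9.88 and a highest value of 10.3 in PTC, against 9.24, 9.49, 9.33, 9.57 and 9.28 in BRAF(+) AT mice M_523, M_779, M_945, M_948 and M_1003. In 9 of 10 PTCs it lay above every BRAF(+) AT, and PTC mouse M_884 was within the AT range. The difference was 0.49 ± 0.13 (log2, SE; adjusted p = 0.012 by limma). BRAF(-) AT averaged 9.13 ± 0.24 (SD, n = 5), and without AT mice M_523 and M_779 the difference was 0.51 and did not pass (adjusted p = 0.070). Whether the probe set for the mouse gene also binds the human transgene RNA is not given in the sources used here.

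Of 20 measured genes of MAPK output and ERK feedback, 8 rose in PTC, 12 did not pass and 0 fell, 20 of 20 differences were positive, and the median difference was 0.43 against -0.05 over all genes. Over all genes tested 9.43% were higher and 9.14% lower in PTC, the shares to set beside list counts here and below. The PEA3 factors Etv1, Etv4 and Etv5 rose by 1.005 ± 0.202, 0.74 ± 0.16 and 0.79 ± 0.18 (log2, SE), with adjusted p of 0.0021, 0.0031 and 0.0049 by limma. Etv1 lay at 9.14 to 9.89 in PTC with a median of 9.42, against 7.52, 7.98, 8.58, 8.93 and 9.12 in BRAF(+) AT mice M_523, M_779, M_945, M_948 and M_1003. No PTC overlapped the BRAF(+) AT range for Etv1, but the AT values themselves spanned most of the distance between BRAF(-) AT, at 7.63 ± 0.16 (SD), and PTC. Ccnd1, the cyclin that carries growth signals into the cell cycle, had its lowest PTC value at 10.4 and its highest at 11.2 (median 11.1), against 9.498, 9.18, 10.1, 10.4 and 10.8 in the same order of AT mice. It rose by 0.96 ± 0.25 (adjusted p = 0.010). The feedback inhibitors Spred1 and Spry2 rose by 0.91 ± 0.20 and 0.40 ± 0.13, and the ephrin receptors Epha2 and Epha4 by 0.68 ± 0.20 and 0.46 ± 0.16. Dusp6, the ERK phosphatase, differed by 0.38 ± 0.15 and Egr1, an immediate early factor, by 0.61 ± 0.26, neither past the threshold (adjusted p = 0.079 and 0.096). Without AT mice M_523 and M_779, the median of the list was 0.25 and 0 of its 20 genes passed. The immediate early genes, a group of fast-responding transcription factors that includes Egr1, had 1 of 12 higher and 2 lower, with a median of -0.12. Nr4a2 rose by 0.69 ± 0.21 (adjusted p = 0.020), and the AP-1 subunits Jund and Jun fell by 0.68 ± 0.18 and 0.43 ± 0.14 (adjusted p = 0.011 and 0.033).

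Upstream of this output, 4 of 14 measured components of the RAF, MEK and ERK cascade rose (9.43% over all genes) and 0 fell. Beside Braf these were Nras (0.38 ± 0.10) and the RAS inhibitors Rasa1 (0.83 ± 0.18) and Nf1 (0.64 ± 0.14), both of which speed the return of RAS to its inactive form. Nf1 lay at 9.73 to 10.5 in PTC, against 9.35, 9.38, 9.34, 9.60 and 9.37 in BRAF(+) AT mice M_523, M_779, M_945, M_948 and M_1003. The groups did not overlap, and the call for Nf1 (adjusted p = 0.0027) held in all 28 alternative fits.

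Receptor tyrosine kinases moved both ways, with 6 of 16 measured receptors higher and 4 lower in PTC and a median of 0.03 (0 called and a median of -0.12 without AT mice M_523 and M_779). Over all genes 9.43% were higher and 9.14% lower. The receptors that rose were Erbb3 (0.69 ± 0.16), Epha2, the scatter factor receptor Met (0.63 ± 0.15), Igf1r (0.58 ± 0.14), Insr (0.38 ± 0.14) and Mst1r (0.29 ± 0.10). Ret fell by 1.06 ± 0.24 (log2, SE; adjusted p = 0.0046), and Fgfr3, Egfr and Fgfr2 fell by 0.78 ± 0.20, 0.47 ± 0.16 and 0.45 ± 0.15. Fgfr3 was at 6.13 to 6.85 in PTC, against 7.21, 7.29, 7.15, 7.19 and 7.21 in the AT mice M_523, M_779, M_945, M_948 and M_1003, with no overlap. Among 14 ligands of the EGF, FGF and related families, Igf2, a fetal growth factor, was the 1 member that passed: it fell by 0.73 ± 0.14 (adjusted p = 0.0020) and held in all 28 alternative fits.

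**Figure D2:**
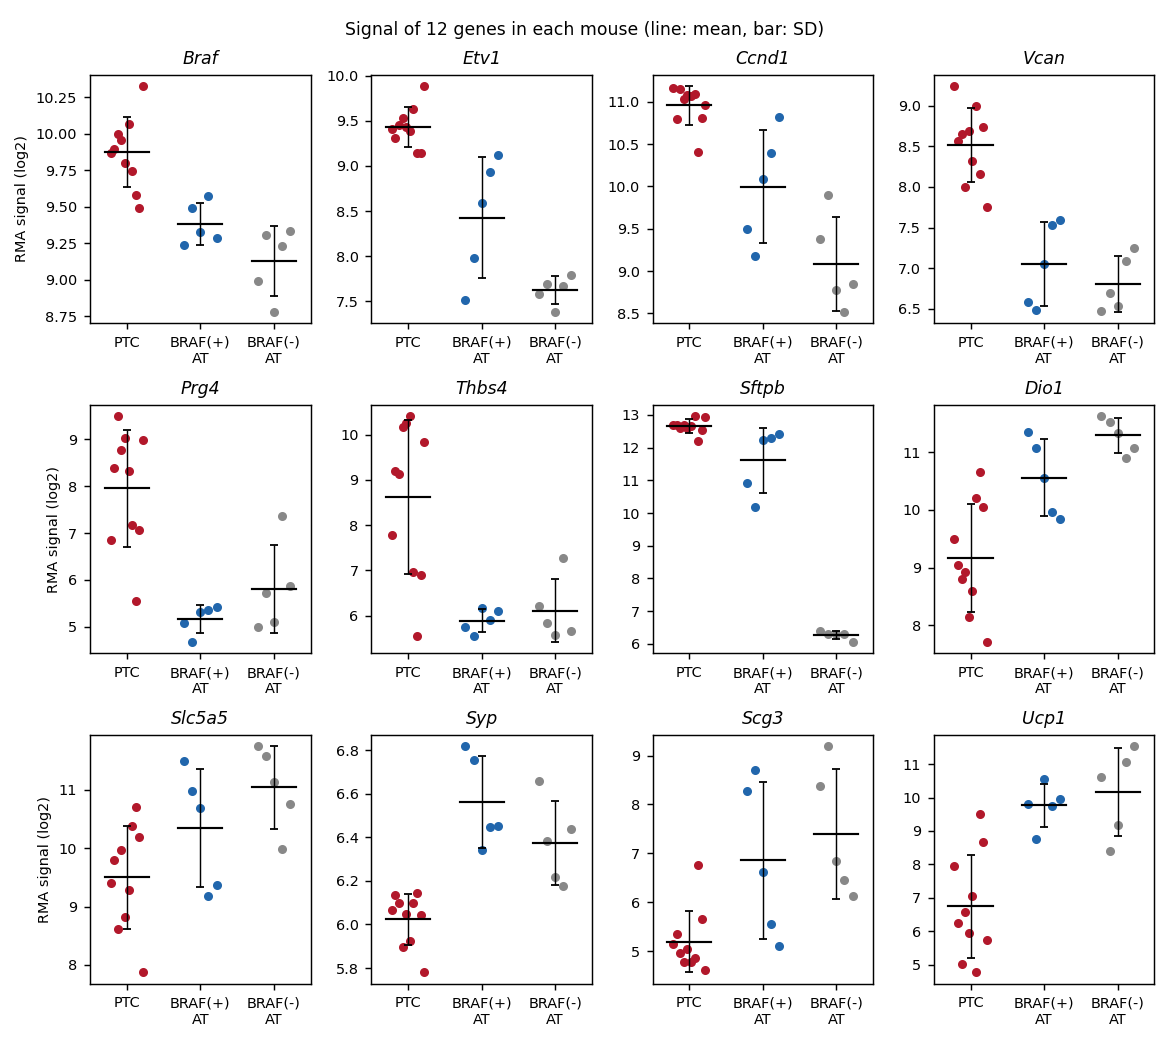
Log2 signal of 12 genes in each mouse, with PTC (10 mice, red), BRAF(+) AT (5, blue) and BRAF(-) AT (5, grey) from left to right and mice in order of their number within a group. Black lines are group means and bars SD, and the vertical axes differ in range and do not start at 0. BRAF(+) AT values of Etv1 ran between 7.52 and 9.12, those of Sftpb (10.2 to 12.4) lay far above BRAF(-) AT, and all PTCs lay above all BRAF(+) AT for Vcan and Prg4.

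Genes of thyroid function fell in part. Of 15 measured genes of the 16 in the thyroid differentiation score, 5 fell in PTC, 0 rose and 10 did not pass, with a median of -0.31. Over all genes 9.14% were lower and 9.43% higher. Dio1, the deiodinase that makes active thyroid hormone, was lowest at 7.71, with a median of 8.99 and a highest value of 10.7 in PTC, against 11.4, 11.1, 10.6, 9.96 and 9.85 in BRAF(+) AT mice M_523, M_779, M_945, M_948 and M_1003. It fell by 1.39 ± 0.47 (log2, SE; adjusted p = 0.036). PTCs overlapped AT through the young mice M_686, M_700 and M_884, which held 10.2, 10.7 and 10.1. Slc5a8, an apical monocarboxylate transporter, fell by 1.14 ± 0.40 (adjusted p = 0.044), Duox2, the source of hydrogen peroxide, by 0.71 ± 0.22 (0.021), the lineage factor Pax8 by 0.35 ± 0.11 (0.023) and the hormone receptor Thra by 0.31 ± 0.10 (0.037).

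The iodide transporter gene did not pass. Slc5a5, which encodes NIS, lay at 7.87 to 10.7 in PTC (median 9.60), against 11.5, 11.0, 10.7, 9.18 and 9.37 in BRAF(+) AT mice M_523, M_779, M_945, M_948 and M_1003, and differed by -0.84 ± 0.39 (adjusted p = 0.12). Tshr, the thyrotropin receptor, and the factor Foxe1 differed by -0.62 ± 0.24 and -0.36 ± 0.14, neither past the threshold (adjusted p = 0.068 and 0.066). Tg, the most abundant thyroid product, was at 13.6 ± 0.07 in PTC and 13.6 ± 0.04 in BRAF(+) AT (SD, n = 10 and 5), close to the top of the signal range of these arrays, which ended at 14.18. Nkx2-1 and Glis3, also follicular factors, differed by 0.06 ± 0.13 and 0.43 ± 0.16 and did not pass. With AT mice M_523 and M_779 left out the median of the list was -0.28 and 0 of 15 genes passed. Outside the score, Lrp2, the endocytic receptor megalin that binds thyroglobulin, rose by 0.48 ± 0.11 (adjusted p = 0.0037), and Slc16a10, a hormone transporter, fell by 0.57 ± 0.19.

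Of 20 measured genes known as markers of human PTC 6 rose and 1 fell, with a median of 0.29. Over all genes 9.43% were higher and 9.14% lower. Chil1, a secreted chitinase-like protein, lay at 10.4 to 12.3 in PTC, against 8.64, 8.67, 11.0, 11.4 and 10.8 in BRAF(+) AT mice M_523, M_779, M_945, M_948 and M_1003, while BRAF(-) AT averaged 5.23. It rose by 1.42 ± 0.39 (log2, SE; adjusted p = 0.013). Timp1 (1.33 ± 0.40), the chromatin protein gene Hmga2 (1.11 ± 0.29), the phosphate transporter gene Slc34a2 (1.01 ± 0.33), Fn1 (0.80 ± 0.23) and Met also rose, and Cited1, a transcriptional partner, fell by 0.57 ± 0.14. Krt19 and Lgals3, cytokeratin 19 and galectin 3, differed by 0.54 ± 0.24 and 0.29 ± 0.27 and did not pass (adjusted p = 0.10 and 0.44). Without AT mice M_523 and M_779 0 of the 20 passed (median 0.09), and the exact Mann-Whitney test called 0. Of the 18 genes that the study selected, 8 rose and 1, Dio1, fell (median 0.48). Itpr3 (0.71 ± 0.17) and Pdlim4 (0.669 ± 0.225) were among those that rose. The mouse step of the study's selection used the non-malignant glands, the 5 BRAF(+) AT among them, and not the mouse PTCs. A further step kept genes that differed between human BRAF(+) PTCs and both other human PTCs and healthy human thyroids. The count is therefore not independent evidence of a direction. Of the 18, 4 rose and 0 fell without AT mouse M_779, and 0 passed without M_523 and M_779 (median 0.21).

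Sftpb, surfactant protein B, was also spread over the BRAF(+) AT mice. It lay at 12.2 to 13.0 in PTC (median 12.7), against 10.9, 10.2, 12.2, 12.3 and 12.4 in BRAF(+) AT mice M_523, M_779, M_945, M_948 and M_1003, and averaged 6.27 ± 0.13 in BRAF(-) AT (SD, n = 5). The PTC difference from BRAF(+) AT was 1.05 ± 0.26 (log2, SE; adjusted p = 0.0071). Sftpc, another surfactant protein gene, was dim, at 4.29 ± 0.13 in PTC and 4.81 ± 0.50 in BRAF(+) AT (SD), and fell by 0.52 ± 0.15 (adjusted p = 0.017). Sftpd and Sftpa1 differed by 0.57 ± 0.37 and 0.64 ± 0.39 and did not pass, so that 1 gene rose and 1 fell of 16 surfactant and airway secretory genes (median 0.15). These counts stand beside 9.43% of all genes higher and 9.14% lower. When AT mice M_523 and M_779 were left out the Sftpb difference was 0.34 (adjusted p = 0.40).

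The genes with the largest increases included proteins of the extracellular matrix. Prg4, the joint lubricant lubricin, lay at 5.54 to 9.498 in PTC with a median of 8.35, against 5.07, 4.67, 5.31, 5.36 and 5.41 in BRAF(+) AT mice M_523, M_779, M_945, M_948 and M_1003. It rose by 2.79 ± 0.55 (log2, SE; adjusted p = 0.0020), all 10 PTCs lay above all 5 AT, and the call held in all 28 alternative fits. Thbs4, a thrombospondin of tendon and injured tissue, had its lowest PTC at 5.54, its median at 9.15 and its highest at 10.4, against 5.75, 5.55, 6.16, 5.89 and 6.09 in the same AT mice. It rose by 2.73 ± 0.71 (adjusted p = 0.0094) in 9 of 10 PTCs above the AT range, and PTC mouse M_700, the youngest, lay just under the lowest AT value. Fmod, fibromodulin, which shapes collagen fibrils, rose by 2.20 ± 0.62 (adjusted p = 0.014), a call that was lost without AT mice M_523 and M_779 (2.15, adjusted p = 0.094).

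Skeletal muscle genes were also high in some PTCs. No muscle gene passed (0 of 17), but their median difference was 1.13, and the mean level of the list was 5.39 to 8.72 in PTC and 5.53 to 5.79 in BRAF(+) AT. In BRAF(-) AT it was 5.61 to 9.595, and mouse M_940, the highest, lay above every PTC. PTC mice M_348, M_358, M_359 and M_1002 were at 7.94 or above, and mouse M_364 at 6.43. Acta1, the muscle actin, reached 10.7 in PTC mouse M_359, and Myh1, a fast myosin, differed by 2.32 ± 1.15 (adjusted p = 0.14). With the levels of muscle, adipocyte and brown adipocyte genes as terms in the fit, Prg4 stayed past the threshold, and Thbs4 and Fmod differed by 1.24 and 0.92 and did not (adjusted p = 0.16 and 0.23).

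Across the fixed matrix lists, 4 of 17 collagen chains rose and 0 fell (median 0.41), as did 6 of 15 matrix glycoproteins and proteoglycans (median 0.31) and 4 of 19 matrix proteases and inhibitors (median 0.39). Over all genes 9.43% were higher and 9.14% lower. Vcan, the proteoglycan versican, lay at 7.76 to 9.24 in PTC, against 6.58, 6.48, 7.05, 7.53 and 7.60 in BRAF(+) AT mice M_523, M_779, M_945, M_948 and M_1003, with no overlap. It rose by 1.47 ± 0.27 (log2, SE; adjusted p = 0.0017) and held in all 28 alternative fits. Postn (1.31 ± 0.32), Thbs2 (1.04 ± 0.30) and Tnc (0.57 ± 0.18) are adhesive proteins of remodelled stroma and also rose. Among collagens, the fibril-associated Col12a1 rose by 0.95 ± 0.24, Col5a2 by 0.93 ± 0.21 and the basement membrane chains Col4a1 and Col4a2 by 0.49 ± 0.17 and 0.50 ± 0.16, whereas Col1a1, the main fibrillar chain, differed by 0.56 ± 0.27 and did not pass (adjusted p = 0.13). The proteases Adam12 (0.88 ± 0.21), Adamts1 (0.57 ± 0.18) and Mmp14 (0.54 ± 0.16) rose beside the inhibitor Timp1. PTC mouse M_700 had the lowest mean collagen level of the PTCs, 7.76, below the lowest AT at 7.82. Without AT mice M_523 and M_779, 0 collagens, 1 glycoprotein and 0 proteases or inhibitors passed, with medians of 0.34, 0.25 and 0.10. Of the 10 fibroblast and smooth muscle genes 1 rose, the pericyte gene Rgs5 (0.36 ± 0.11), a share near the 9.43% over all genes.

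The TGF-beta and activin list had 7 of 16 measured genes higher and 1 lower (median 0.19). Those that rose were the latent complex protein Ltbp2 (1.27 ± 0.38), the secreted target Tgfbi (1.22 ± 0.28), the activin subunits Inhbb (0.83 ± 0.26) and Inhba (0.58 ± 0.21), the ligand Tgfb3 (0.81 ± 0.26), the SMAD repressor Skil (0.48 ± 0.10) and the receptor Tgfbr1 (0.28 ± 0.10). Ltbp1 fell by 0.58 ± 0.17, and without AT mice M_523 and M_779 none of the 16 passed (median 0.13). None of 8 genes of epithelial-mesenchymal transition passed, with a median of 0.16. Of 22 measured keratin and junction genes 3 rose and 1 fell (median 0.12), where 9.43% of all genes were higher and 9.14% lower. Junction genes changed singly: Cldn2, a pore-forming claudin, rose by 0.84 ± 0.23, Tjp1 by 0.57 ± 0.14 and Cgn by 0.40 ± 0.13, and Cldn6 fell by 0.73 ± 0.23.

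Proliferation genes were mostly higher in PTC, and few passed. Of 23 measured genes 20 had positive differences, 3 rose and 0 fell, with a median of 0.32. Top2a, the topoisomerase of dividing cells, lay at 5.57 to 6.93 in PTC, against 5.14, 4.68, 5.24, 5.56 and 6.31 in BRAF(+) AT mice M_523, M_779, M_945, M_948 and M_1003, and rose by 0.92 ± 0.32 (log2, SE; adjusted p = 0.040). Mouse M_1003 lay within the PTC range. Cdk1 and Mcm7 rose by 0.68 ± 0.22 and 0.39 ± 0.13, and Mki67 differed by 0.79 ± 0.31 without passing (adjusted p = 0.067). Over all genes 9.43% were higher. With AT mice M_523 and M_779 left out, 0 of the 23 genes passed and the median was 0.25. Of 16 measured G1 cyclins and cell cycle inhibitors 2 rose and 1 fell (median 0.05). Beside Ccnd1, the G1 kinase Cdk6 rose by 0.71 ± 0.18, and the inhibitor Cdkn1c fell by 0.31 ± 0.09 (adjusted p = 0.019 by limma).

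**Figure D3:**
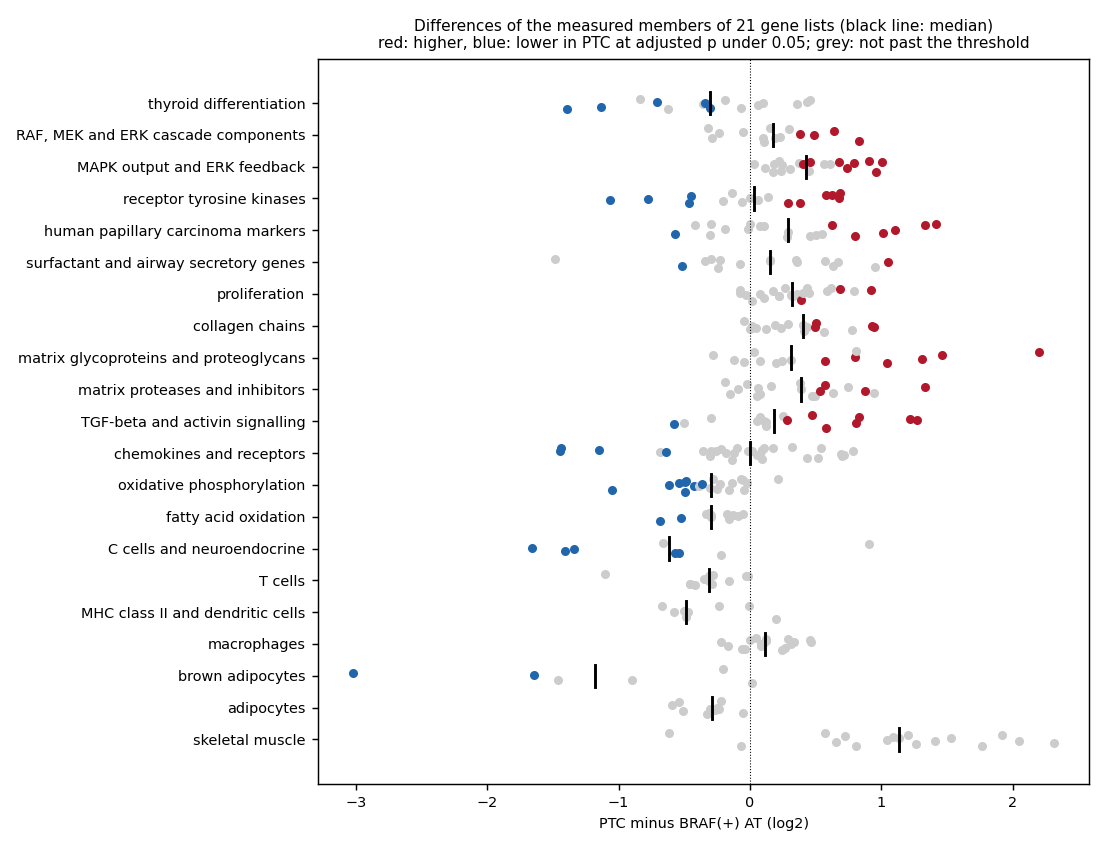
Difference between PTC and BRAF(+) AT on the log2 scale for the measured members of 21 gene lists, 1 point per gene, with a black line at each list's median. Red members were higher and blue members lower in PTC at an adjusted p under 0.05, and grey members did not pass. MAPK output lies to the right with a median of 0.43, neuroendocrine and brown adipocyte genes lie to the left with medians of -0.61 and -1.18, and the muscle genes are wide and grey.

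Of 8 measured genes of C cells and neuroendocrine cells 5 fell, 3 did not pass and 0 rose, with a median of -0.61, and the calcitonin gene was not analysed here. Over all genes 9.14% were lower. Scg2, Pcsk1 and Chgb, which fell, carry a cAMP response element in the promoter, the site at which CREB acts on many hormone and granule genes, and are shown for that reason with the element, TGACGTCA, in capitals. The windows are from RefSeq (GRCm38.p6), 5′ to 3′ on the gene's strand and 300 bases long, and 6 of the 8 genes matched a window.
Scg2, chr1:79439977-79440276, minus strand: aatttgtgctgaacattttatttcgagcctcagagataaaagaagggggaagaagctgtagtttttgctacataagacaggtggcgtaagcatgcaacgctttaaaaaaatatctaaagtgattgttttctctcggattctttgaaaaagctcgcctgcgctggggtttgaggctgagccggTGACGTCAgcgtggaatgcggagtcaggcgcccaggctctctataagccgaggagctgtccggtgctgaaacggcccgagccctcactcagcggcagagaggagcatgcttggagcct
Pcsk1, chr13:75089607-75089906, plus strand: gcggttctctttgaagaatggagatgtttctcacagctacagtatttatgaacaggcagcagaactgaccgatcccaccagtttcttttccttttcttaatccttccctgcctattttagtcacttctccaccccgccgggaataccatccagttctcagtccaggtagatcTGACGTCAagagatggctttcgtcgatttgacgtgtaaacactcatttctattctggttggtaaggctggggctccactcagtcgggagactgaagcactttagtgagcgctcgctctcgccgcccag
Chgb, chr2:132781392-132781691, plus strand: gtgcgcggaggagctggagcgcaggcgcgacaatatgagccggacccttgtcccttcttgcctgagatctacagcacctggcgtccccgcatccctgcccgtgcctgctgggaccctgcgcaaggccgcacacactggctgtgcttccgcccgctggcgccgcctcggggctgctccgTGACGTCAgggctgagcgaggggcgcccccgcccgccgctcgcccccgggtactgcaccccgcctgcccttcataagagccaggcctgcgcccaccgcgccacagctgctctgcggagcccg

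The element, which reads the same on both strands, starts 68, 78 and 72 bases before the annotated start of Scg2, Pcsk1 and Chgb. It is present in the windows of 3 of the 6 matched genes of this list and in 2.72% of the 15614 genes tested here that have a window. A match describes these letters and is no evidence of binding.

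Scg3, a granule protein that binds chromogranins, lay at 4.61 to 6.76 in PTC (median 5.01), against 8.28, 8.70, 6.62, 5.57 and 5.10 in BRAF(+) AT mice M_523, M_779, M_945, M_948 and M_1003. It fell by 1.66 ± 0.45 (log2, SE; adjusted p = 0.011). AT mice M_523 and M_779 lay above every PTC and the other 3 AT mice within the PTC range, and BRAF(-) AT averaged 7.40 ± 1.32 (SD, n = 5). Scg2, secretogranin II, was at 4.86 to 6.19 in PTC, against 8.35, 8.36, 7.01, 5.63 and 5.19 in the same order of AT mice, and Pcsk1, the prohormone convertase, at 5.15 to 6.82, against 8.46, 8.11, 6.85, 5.69 and 5.72. They fell by 1.41 ± 0.42 and 1.34 ± 0.38. Chgb, chromogranin B, fell by 0.57 ± 0.20 (adjusted p = 0.049). When AT mice M_523 and M_779 were left out the differences of Scg3, Scg2, Pcsk1 and Chgb were -0.82, -0.61, -0.63 and -0.16, and none of the 4 passed.

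Syp, synaptophysin, a membrane protein of small vesicles, varied less between BRAF(+) AT mice, with an SD of 0.21 against 0.738 to 1.599 for the other 4 that fell. It lay at 5.78 to 6.146 in PTC, against 6.82, 6.76, 6.34, 6.45 and 6.45 in BRAF(+) AT mice M_523, M_779, M_945, M_948 and M_1003. All 10 PTCs were below all 5 AT, the decrease was 0.54 ± 0.09 (adjusted p = 0.0011), and the call held in all 28 alternative fits. The decrease was under the minimum of 1.5-fold, which is not among those fits. Of 3 measured Schwann cell genes 2 also fell, S100b by 0.91 ± 0.25 and Sox10 by 0.46 ± 0.13.

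Parathyroid hormone RNA was high in some glands. Pth, parathyroid hormone, was at 11.9, 12.2, 9.77 and 12.8 in PTC mice M_358, M_359, M_415 and M_884 and at 3.002 to 3.37 in the other 6 PTCs, against 3.04 to 3.59 in the 5 BRAF(+) AT. It averaged 5.35 in BRAF(-) AT. The mean level of the parathyroid genes Pth and Casr was 11.3 in BRAF(-) AT mouse M_524 and 4.535 to 5.63 in the others of that group. Chga, chromogranin A, which parathyroid cells also make, was high in the same 4 PTCs, at 11.5, 12.3, 9.76 and 13.0, and at 6.07 to 6.59 in the other PTCs, against 8.57, 8.76, 7.40, 6.51 and 6.23 in BRAF(+) AT mice M_523, M_779, M_945, M_948 and M_1003. Its fitted difference of 0.91 ± 1.28 did not pass (adjusted p = 0.63) and was -1.29 without those 4 PTC mice, an alternative added after seeing the data, in which Scg3, Pcsk1 and Syp passed and Scg2 and Chgb did not (adjusted p = 0.054 and 0.077).

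Of 20 measured genes of oxidative phosphorylation 8 fell, 12 did not pass and 0 rose, 19 of 20 differences were negative, and the median was -0.29. The share of all genes that were lower was 9.14%. Ndufb8, a subunit of complex I, lay at 7.89 to 9.15 in PTC, against 9.53, 9.58, 9.81, 9.499 and 9.73 in BRAF(+) AT mice M_523, M_779, M_945, M_948 and M_1003, with no overlap. It fell by 1.05 ± 0.20 (log2, SE; adjusted p = 0.0019) and held in all 28 alternative fits. No other Nduf gene of the list passed. Over all 43 genes with an Nduf symbol, grouped after the values were seen, 17 were lower and 1 higher. Outside the list, Ndufs8 fell by 0.56 ± 0.13, with no overlap, and held in all 28 fits. The other subunits of the list that passed fell by less than Ndufb8: Uqcrq by 0.62 ± 0.16, Cox5a by 0.54 ± 0.14, Cox4i1 by 0.50 ± 0.14, Sdhb by 0.50 ± 0.15, Cox6a1 by 0.48 ± 0.16, Uqcrc1 by 0.42 ± 0.12 and Sdhc by 0.37 ± 0.10. Atp5a1 and Atp5b differed by -0.13 ± 0.08 and -0.16 ± 0.07 and did not pass (adjusted p = 0.22 and 0.095 by limma). Among 11 genes of fatty acid oxidation 2 fell, Acaa2 by 0.68 ± 0.17 and Hadh by 0.52 ± 0.16, and 11 of 11 differences were negative. No gene passed among 13 of glycolysis and hypoxia or 10 of fatty acid synthesis.

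Of 6 brown adipocyte genes 2 fell and 0 rose, with a median of -1.18, where 9.14% of all genes were lower. Ucp1, the uncoupling protein that defines brown fat, was lowest at 4.77, with a median of 6.41 and a highest value of 9.51 in PTC, against 9.82, 8.75, 10.5, 9.75 and 9.95 in BRAF(+) AT mice M_523, M_779, M_945, M_948 and M_1003. Among the genes that passed it had the largest decrease and fell by 3.02 ± 0.94 (log2, SE; adjusted p = 0.025), with 9 of 10 PTCs below the AT range and the young PTC mouse M_700 within it. Without AT mice M_523 and M_779 the Ucp1 difference was -3.71 and missed the threshold (adjusted p = 0.063). Cox8b, a respiratory subunit of muscle and brown fat, fell by 1.64 ± 0.55, and Cidea, a lipid droplet protein, differed by -1.46 ± 0.55 (adjusted p = 0.059). The mean level of the 6 genes was 5.78 to 8.08 in PTC and 7.82 to 8.82 in BRAF(+) AT, and none of the 10 general adipocyte genes passed (median -0.29). Cox7a1, a subunit of heart, muscle and brown fat, lay at 7.11 to 8.38 in PTC, against 8.96, 8.40, 10.0, 9.21 and 9.23 in the same AT mice, and fell by 1.45 ± 0.41 (adjusted p = 0.015). With muscle, adipocyte and brown adipocyte levels as terms, the differences were -0.16 for Ucp1, a member of the brown adipocyte term itself, and -0.69 for Cox7a1 (adjusted p = 0.050, above the threshold), and the median of the oxidative phosphorylation list was -0.10 with 1 gene called. With AT mice M_523 and M_779 left out that list kept a median of -0.33 with 4 genes called.

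**Figure D4:**
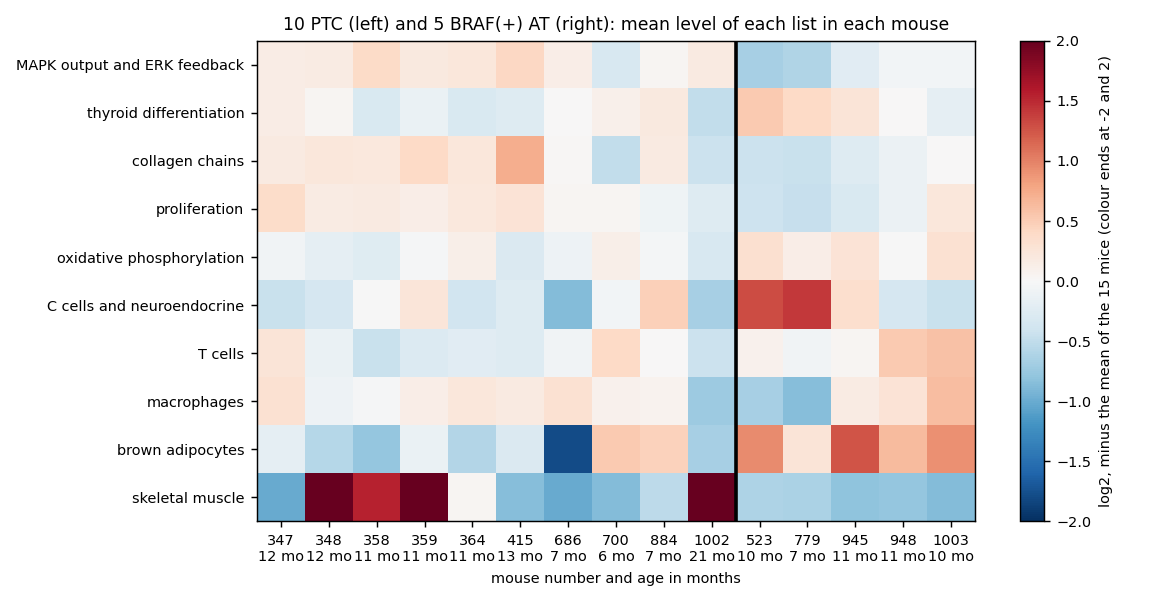
Mean log2 level of 10 gene lists in each of the 15 mice, minus the mean of those mice, with the 10 PTC on the left and the 5 BRAF(+) AT on the right of the black line. Columns carry mouse number and age in months, and colours end at -2 and 2. AT mice M_523 and M_779 were low in MAPK output (7.45 and 7.51) and high in neuroendocrine genes (7.97 and 8.08), and PTC mice M_348, M_358, M_359 and M_1002 were high in muscle genes.

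Immune genes gave few calls. None of 18 macrophage genes passed (median 0.11), with Lyz2, a macrophage lysozyme, at a difference of 0.31 ± 0.20, and none of 9 genes of MHC class II and dendritic cells (median -0.49), 12 T cell genes (median -0.31, with 12 of 12 negative) or 8 of B and plasma cells (median -0.22, with 8 of 8 negative). H2-Aa, an MHC class II chain, Cd3g, of the T cell receptor complex, and Jchain, which joins secreted antibodies, differed by -0.50 ± 0.29, -1.11 ± 0.54 and -1.52 ± 0.88 (adjusted p = 0.22, 0.14 and 0.21). Igkv8-30, an antibody light chain segment, lay at 2.98 to 5.64 in PTC, against 4.195, 5.58, 7.02, 7.63 and 5.81 in BRAF(+) AT mice M_523, M_779, M_945, M_948 and M_1003, and fell by 2.03 ± 0.57 (adjusted p = 0.014). Igkv5-43 fell by 1.69 ± 0.54, and such near-identical segments may share probe signal, so that the segment is uncertain.

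Of 30 chemokines and receptors 4 fell and 0 rose, where 9.14% of all genes were lower. The list had no common direction, with 15 differences positive, 15 negative and a median of 0. Ccl11, eotaxin, lay at 7.17 to 9.18 in PTC, against 9.63, 9.12, 10.0, 9.78 and 9.48 in BRAF(+) AT mice M_523, M_779, M_945, M_948 and M_1003, and fell by 1.45 ± 0.32 (log2, SE; adjusted p = 0.0037). The lymphoid tissue chemokines Cxcl13 and Ccl19 fell by 1.44 ± 0.49 and 1.15 ± 0.32, and Cxcl12 by 0.64 ± 0.19. For Cxcl13 the AT values were 9.77, 10.1, 8.53, 7.90 and 8.72 in the same order, so that mice M_523 and M_779 were the highest, and BRAF(-) AT averaged 9.04 ± 1.14 (SD).

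The other genes among the 20 with the largest increases included transporters, enzymes and surface proteins. Slc26a9, a chloride channel of airway and stomach, averaged 8.38 in PTC, 6.45 in BRAF(+) AT and 5.06 in BRAF(-) AT, and rose by 1.94 ± 0.41 in PTC over BRAF(+) AT. Sptlc3, a subunit of the enzyme that starts sphingolipid synthesis, rose by 1.82 ± 0.38, Atp13a4 by 1.71 ± 0.34 and St8sia6, a sialyltransferase, by 1.58 ± 0.33. Tacr3, the neurokinin B receptor, averaged 8.18 in PTC, 6.54 in BRAF(+) AT and 4.23 in BRAF(-) AT. The gene 4921509C19Rik rose by 2.18 ± 0.38, with all PTCs at 6.21 to 8.48, against 4.64, 4.17, 5.26, 5.29 and 5.12 in BRAF(+) AT mice M_523, M_779, M_945, M_948 and M_1003, and held in all 28 alternative fits. Heph, a copper oxidase that exports iron with its transporter, Aqp1, a water channel, and the noncoding RNA gene Meg3 rose by 1.53 ± 0.27, 1.51 ± 0.34 and 1.59 ± 0.40. Lrrn1, Lipi, Elapor2, Ankrd22, Cntn3, DQ267102, Snord33 and Vash2 completed the 20 highest, at 1.48 to 1.81, and the call for Lrrn1 (adjusted p = 0.049) held in 8 of 28 alternative fits.

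The remaining genes among the 20 lowest were Lgi3 (-1.64), the carbonic anhydrase Car4 (-1.53), the methyltransferase Inmt (-1.49), the phosphatase Alpl (-1.42), the dipeptidase Dpep1 (-1.37), Tmem255a (-1.25), the WNT antagonist Sfrp5 (-1.24), the water channel Aqp6 (-1.23) and Hhatl (-1.20). Dpep1 lay at 7.20 to 9.53 in PTC, against 9.79, 9.94, 10.0, 10.1 and 9.94 in BRAF(+) AT mice M_523, M_779, M_945, M_948 and M_1003, with no overlap. Lgi3, a secreted protein of nerve and skin, was at 6.10 to 7.93 in PTC, against 9.48, 9.70, 8.61, 8.18 and 7.73 in the same AT mice, of which mouse M_1003 lay within the PTC range. Retinoid storage had 1 of 13 genes lower, Lrat, the enzyme that makes retinyl esters, at -1.19 ± 0.37. Of 8 squamous epithelium genes 1 passed, Ivl, which rose by 1.01 ± 0.29, while 5 of the 8 differences were negative (median -0.07), among them the keratin genes Krt5 and Krt14 at -0.24 and -0.15. Of 11 cartilage and tendon genes (median -0.002) the collagen gene Col9a1 rose by 0.99 ± 0.21 and Col2a1, the collagen that defines cartilage, fell by 0.36 ± 0.09. Of 18 genes of endothelium and angiogenic factors 1 passed, Vegfb, which fell by 0.49 ± 0.11. Among 6 mast cell genes the dim Fcer1a fell by 0.22 ± 0.08, and among 5 ciliated airway genes Foxj1 fell by 0.29 ± 0.10. No gene passed among 9 of interferon response, 10 of complement and acute phase or 12 of the unfolded protein response. The 10 neutrophil and 5 thymus genes also gave none. Over all genes 9.43% were higher and 9.14% lower.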

How the data were processed

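RNA from 38 mouse thyroids was hybridised to 1-colour arrays, 1 per mouse, and the authors deposited log2 signals from RMA (robust multi-array average), an array normalization whose version is not given in the sources used here. Scan dates were not used here, and the number of arrays limits the precision. Of 35556 probe sets, 21789 had 1 gene symbol in the platform annotation, 1621 had several and 12146 were not listed. The probe set with the highest mean signal stood for each gene, which gave 19938 genes.

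Groups came from the labels. A model of 6 groups and sex was fitted to all 38 mice (31 residual degrees of freedom) with limma 3.58.1 in R 4.3.3, with Benjamini-Hochberg adjustment over all genes at 0.05, after it was tested on simulated data. Replicates were separate mice. The members and gene lists were chosen with earlier results of these data known. The rule named Braf, the 20 highest and 20 lowest genes that passed, and, of each list, the members that passed or otherwise up to 4 by p. Some lists in which no member passed are given by their counts alone. Alternatives varied the filter, probe sets, mice, terms, centring, weights, variance, test and fold minimum. Promoter windows came from RefSeq, and figures were drawn with matplotlib 3.10.9.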

Additional observations from a re-analysis of the deposited data

Results flagged for a closer look

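In 26 of 312 gene and group combinations, 1 mouse lay far from the others of its group by the gap at the end of the group's range, where chance alone flags about 1 in 20 groups. PTC mouse M_700, the youngest at 6 months, held 10 of them. It was low for Vash2 (8.91), Ccnd1 (10.4), Slc34a2 (6.66), Nkx2-1 (9.32) and Dusp6 (9.23), and high for Igkv5-43 (5.82), Scg3 (6.76), Pcsk1 (6.82), Tmem255a (7.27) and Slc5a8 (9.99), all as log2 signals.

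PTC mouse M_686 was low for Cox8b (5.11) and Cidea (4.39) and high for Etv4 (7.22) and for Pdlim4 (8.80). PTC mouse M_1002, the oldest at 21 months, was low for Cox6a1 (8.75) and Rgs5 (9.75), PTC mouse M_884 for Tnc (8.80) and PTC mouse M_359 for Sftpc (3.98).

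Among BRAF(+) AT, mouse M_779 was low for Lrp2 (8.92), Erbb3 (9.23), Ccl19 (7.00) and Sftpa1 (8.20) and high for Myh1 (4.23). Mouse M_1003 was low for Pax8 (11.1) and high for Cox4i1 (10.1), and mouse M_948 was high for Nf1 (9.60).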

How the results depend on the processing

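All 3704 genes kept their direction in every refit that tested them, and what varied was how many passed. The genes that passed were 1247 (991 higher, 256 lower in PTC) with the flat filter of the methods, 1561 (918, 643) with muscle, adipocyte and brown adipocyte levels as terms, 1011 (614, 397) without mice under 9 months, 1820 (1105, 715) in females only, 671 (411, 260) without AT mice M_523 and M_779, and 675 (464, 211) at a minimum of 1.5-fold. The exact Mann-Whitney test called 2447, with 1107 lower, and every probe set gave 3020 higher. Of the alternatives chosen after seeing the data, leaving out the 4 PTC mice with Pth signal gave 1130 lower, and testing only genes with a mean of at least 6.5 gave 862 lower. Leaving out 1 mouse at a time gave 1748 to 4046 called, 982 to 1939 higher and 766 to 2174 lower, the lowest each time without AT mouse M_779. The share of calls that were higher was 79.5% with the flat filter and 61.3% without AT mice M_523 and M_779.

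Differences of genes that did not pass reversed. With the tissue levels as terms Tg was 0.003 and Nkx2-1 -0.122. Without the 4 PTC mice with Pth signal Pth was -0.103 and Chga -1.29. Without mice under 9 months Lyz2 was -0.01, Sftpd -0.134 and Sftpa1 -0.225, and without AT mice M_523 and M_779 Lgals3 was -0.016, Lyz2 -0.069, Sftpd -0.187 and Sftpa1 -0.11. The cause was not tested. No paired analysis was possible because mouse numbers are not shared between the groups compared.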

Other observations

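Some gene classes outside the lists, grouped by symbol after the values were seen, are given as counts with no test. Of 51 small nucleolar RNA genes (Snora and Snord), which guide the modification of ribosomal RNA, 26 were higher and 0 lower in PTC, with a median difference of 0.57. Among genes with a Zfp symbol, the zinc finger proteins, 74 (21.3%) were higher and 8 (2.31%) lower, with a median of 0.10. Of 43 Nduf genes, subunits and assembly factors of complex I, 1 was higher and 17 (39.5%) were lower (median -0.27). Of 77 genes of the mitochondrial ribosome 2 were higher and 7 (9.09%) lower, and of 55 of the cytosolic one 5 (9.09%) were higher and 0 lower. Over all genes 9.43% were higher and 9.14% lower. The mitochondrial share that was lower and the cytosolic share that was higher were near these. The mitochondrial share that was higher (2.597%) and the cytosolic share that was lower (0%) were below them.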
